A study of Mus musculus with 289 samples.

Results

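Gata6, Plet1, Krt79, Defb6, Rarres1, Teddm3, Susd2 and Slc5a9 are 8 of the 15019 genes in a table of single-cell transcriptomes of mouse tail epidermis. They were picked by symbol as genes of the upper hair follicle and its ducts, and they were selected on measured values, since earlier results of these same cells were known when the list was drawn up. Rarres1 had led a cluster in those results, and how each of the other 7 was picked is not stated. All 8 had a row in the table. Their levels and their joint detection are therefore given as a description, without a test. The comparison of treatments is tested.

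Every cell came from mice of a mixed CBA and C57BL/6 strain that carried the Lrig1-EGFP-ires-CreERT2 and Rosa26-fl/STOP/fl-tdTomato alleles. Hydroxytamoxifen, put once on the tail skin, switched on tdTomato in Lrig1-expressing cells, and sorting for tomato took these cells and their descendants. The skin was then treated with PRT4165, a compound that inhibits Ring1A and Ring1B, the catalytic subunits of Polycomb repressive complex 1, or with vehicle. The study asked whether that inhibitor alters transcription in the labelled cells. All cells carry the population label L1 and the time label t0. There were 2 plates per treatment, named replicate 1 and replicate 2, and no plate held both treatments. Both vehicle plates also carry the code PR9 and both PRT4165 plates the code PR12, so an experiment marked by these codes, if they mark one, cannot be told apart from treatment in any comparison given here. A difference between treatments within a replicate number therefore cannot be told apart from one between plates. The number of animals behind a plate is not given by the labels, and p-values measure only the spread between these plates. After filtering, 274 of 289 cells remained, with 70, 55, 72 and 77 on vehicle replicates 1 and 2 and PRT4165 replicates 1 and 2. The plates summed to between 25761756 and 41592716 counts, and the median cell had 141985 counts on vehicle replicate 1 and between 429383 and 538754 on the other 3 plates. The keratinocyte label matched its defining genes, with Krt14 in 255 of 274 cells. Ptprc, which marks immune cells, was found in 13 cells. Lrig1 itself had a count in 97 cells.

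The upper part of the hair follicle, between the sebaceous gland and the skin surface, forms the infundibulum and the sebaceous duct, and its lower border is the junctional zone. Lrig1-positive stem cells of that zone supply duct, infundibulum and gland. Gata6, a zinc-finger transcription factor of the GATA family, marks cells committed to the duct lineage. Krt79 is a type II keratin of the duct and infundibulum, and Plet1 is a surface protein found on upper follicle cells. Defb6 encodes a beta-defensin, a small secreted antimicrobial peptide. Rarres1 is a retinoid-responsive gene, Teddm3 encodes a protein of the transmembrane epididymal family, Susd2 a membrane protein with a sushi domain, and Slc5a9 a sodium-coupled sugar transporter.

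The genes lie on 8 different chromosomes of the GRCm38 build in the GENCODE vM21 annotation, and all 8 are protein coding. Plet1 (ENSMUSG00000032068.14) spans chr9:50494525-50505482 on the plus strand, and Krt79 (ENSMUSG00000061397.8) chr15:101929332-101940324 on the minus strand. Defb6 (ENSMUSG00000050756.3) spans chr8:19225478-19228209 on the plus strand, and its transcript of 323 bases is the shortest of the set. The other 4, Rarres1, Teddm3, Susd2 and Slc5a9, are on the minus strand, with transcripts of 1325, 1346, 3151 and 4484 bases.

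RefSeq promoter sequences, from 250 bases before the start of a gene to 50 bases beyond it, were matched for Defb6, Krt79, Plet1, Rarres1 and Teddm3. Each was searched on both strands for AGATAA or TGATAA, the letters most often bound by GATA factors, because Gata6 is the one transcription factor of the set. The letters were found in 2 of these 5 promoters, and in 18.6% of all 32851 promoters of the same length. In Defb6 they begin at position -115 (upstream bases are negative), and in Krt79 they lie beyond the start, at base 31 of the transcript. The Defb6 stretch runs from the motif's flank to the start at chr8:19225323-19225477 on the plus strand of GRCm38, and the Krt79 stretch is chr15:101940277-101940306 on the minus strand. Capitals mark the letters searched for.
Defb6: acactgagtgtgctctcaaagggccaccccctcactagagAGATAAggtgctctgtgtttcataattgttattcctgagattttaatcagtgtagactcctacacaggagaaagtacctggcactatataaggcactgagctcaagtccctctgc
Krt79: ccagctgggaaaAGATAAaaaggtgtttgg
A match is a run of letters and not a binding site. Nothing was found in the windows of Plet1, Rarres1 and Teddm3, which says only that these letters are not in those 300 bases.

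The 8 genes differed widely in level. CPM are counts scaled to a total of 1000000. On the scale of CPM per kilobase of transcript, averaged over the 4 plates, Defb6 stood first with 37314 and Krt79 second with 999.7. Teddm3 followed with 125, Plet1 with 99.8, Rarres1 with 27.1, Gata6 with 8.29, Susd2 with 7.40 and Slc5a9 with 5.57. The ranges over plates did not overlap between Defb6 and Krt79, between Krt79 and Teddm3, or between Plet1 and Rarres1. They overlapped between every other pair of neighbours in this order. Teddm3 also overlapped Rarres1, at 44.1 on PRT4165 replicate 2 against 46.4 for Rarres1 on vehicle replicate 2. Teddm3 and Plet1, Teddm3 and Rarres1, and the lowest 4 genes are therefore not ranked beyond the spread between plates.

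Detection followed a similar order. At least 1 count was found for Defb6 in 58.03% of the 274 cells, for Krt79 in 47.8%, for Plet1 in 45.99%, for Teddm3 in 25.9%, for Susd2 in 24.8%, for Gata6 in 22.99%, for Rarres1 in 15.7% and for Slc5a9 in 13.5%. Among the cells with a count, levels ran over several orders of magnitude. Defb6 lay between 0.898 and 127134 CPM with a median of 5426. Gata6, as is usual for a transcription factor, was low, with 1.11 to 436 CPM and a median of 41.6 in its 63 cells. Cells with Gata6 were also deeper, with a median of 596555 counts against 347033 in cells without it, and how far depth set its detection was not tested beyond the thinning described further on.

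**Figure D1:**
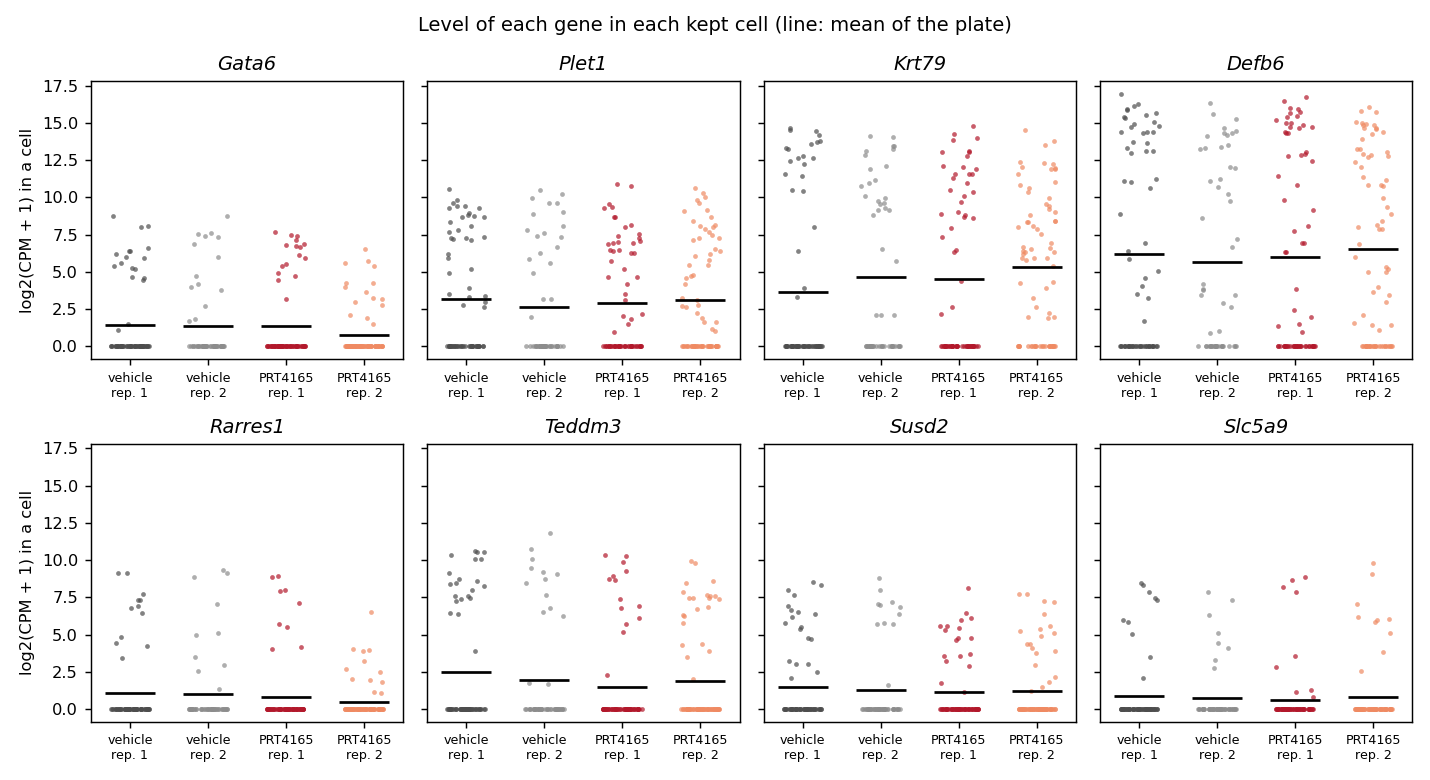
Each panel plots 1 gene, with log2(CPM + 1) in a cell on the vertical axis and the 4 plates on the horizontal axis; each point is 1 of the 274 kept cells and the black line is the mean of the plate. Defb6 and Krt79 reach the highest levels, and Gata6, Rarres1, Susd2 and Slc5a9 are at 0 in most cells of every plate.

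The sum of counts over a plate was the first measure compared between treatments. Gata6 (ENSMUSG00000005836.10, chr18:11052064-11085635, plus strand) stood at 52.2 and 22.2 CPM with vehicle and at 27.3 and 5.55 CPM with PRT4165, in the order of replicates 1 and 2. The treatments overlapped, since PRT4165 replicate 1 lay above vehicle replicate 2. A single cell gave 53.6% of the Gata6 counts of vehicle replicate 1. The fitted log2 fold change, PRT4165 against vehicle, was -1.24 ± 0.92 (SE, n = 2 plates per group), with an adjusted p of 0.997 in edgeR's quasi-likelihood test. With the deepest cell of each plate left out it was -0.64. Within each replicate number the PRT4165 plate was the lower one.

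The surface and structural genes were higher in the vehicle sums without passing the test. Krt79 stood at 3446 and 1913 CPM with vehicle and at 1820 and 1207 CPM with PRT4165. The gap between vehicle replicate 2 and PRT4165 replicate 1 was small, and their order turned once library sizes were scaled by TMM, to 1717 and 1771. Plet1 was at 254 and 170 CPM with vehicle and at 152.998 and 97.1 CPM with PRT4165. The log2 fold changes were -0.85 ± 0.49 for Krt79 and -0.77 ± 0.53 for Plet1 (SE, n = 2 plates per group), both with an adjusted p of 0.997 in edgeR. Cell numbers of a type and RNA per cell cannot be told apart in such sums.

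Defb6, the secreted peptide, stood at 21874 and 7551 CPM with vehicle and at 12230 and 6555 CPM with PRT4165. Vehicle replicate 1 was the plate apart from the others, and the treatments overlapped. The log2 fold change was -0.70 ± 0.59 (SE, n = 2 plates per group; adjusted p = 0.997 in edgeR), and without vehicle replicate 1 it was 0.48, the other direction.

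The remaining 4 genes did not move alike. Teddm3 had the smallest unadjusted p of the set. It was at 267 and 244 CPM with vehicle and at 104 and 59.3 CPM with PRT4165, and these did not overlap. A few cells made up much of each Teddm3 sum. The top cell supplied 32.4% for vehicle replicate 1 and 42.2% for vehicle replicate 2. For PRT4165 replicates 1 and 2 it supplied 27.4% and 17.3%. The top 3 cells together supplied from 45.5% (PRT4165 replicate 2) to 75.0% (vehicle replicate 2). The log2 fold change of Teddm3 was -1.64 ± 0.52 (SE, n = 2 plates per group), with an unadjusted p of 0.0131 and an adjusted p of 0.898 in edgeR. Rarres1 was at 46.4 and 61.4 CPM with vehicle and at 32.7 and 3.22 CPM with PRT4165, and the 2 PRT4165 plates lay far apart. Between 26.6% and 48.5% of its counts on a plate came from 1 cell. Susd2 was at 29.5 and 29.9 CPM with vehicle and at 13.2 and 20.6 CPM with PRT4165. Slc5a9 was at 31.8 and 9.13 CPM with vehicle and at 27.9 and 30.97 CPM with PRT4165, and 1 cell held 57.998% and 58.99% of its counts on the vehicle plates. Their log2 fold changes were -1.58 ± 0.98 for Rarres1, -0.77 ± 0.71 for Susd2 and 0.48 ± 0.83 for Slc5a9 (SE, n = 2 plates per group; adjusted p = 0.997 each in edgeR). Slc5a9 was the only member of the 8 with a value above 0.

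None of the 8 genes passed the threshold, and neither did any other gene (0% of 12791 tested) in edgeR. At an unadjusted p under 0.05 there was 1 of the 8 against 4.93% of all genes. DESeq2 called 1.68% of genes and limma on the mean log2 level per cell 0.149%, and none of the 8 was among either. A log2 fold change under 0 was found for 7 of the 8 and for 50.6% of all genes. After TMM scaling both PRT4165 plates lay below both vehicle plates for Teddm3, Rarres1, Plet1 and Susd2, against 15.6% of all genes. Both lay above for none of the 8, against 16.4% of all genes. The 8 were measured in the same cells of the same plates and correlated across them, so these counts are not 8 separate observations.

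Detection gave another picture than the sums. To compare shares of cells at equal depth, each cell was thinned to 50000 counts, which 246 cells could supply (59, 54, 61 and 72 by plate). Gata6 was then detected in 27.1% (Wilson 95% interval 17.4 to 39.6) and 20.4% of the vehicle cells and in 19.7% and 12.5% (6.72 to 22.1) of the PRT4165 cells. The vehicle mean was 23.7% ± 4.77 and the PRT4165 mean 16.1% ± 5.07 (SD, n = 2 plates each; exact two-sided permutation p = 0.333, the smallest that 2 against 2 plates can give). Both PRT4165 plates lay below both vehicle plates, the nearest pair differing by less than the intervals. The share was also lower with PRT4165 within each replicate number. The size of the difference depended on the draw, at -7.66 percentage points here and -3.47 with another random seed.

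Krt79 went the other way in detection. It was found in 35.6% and 46.3% of the vehicle cells and in 39.3% and 59.7% of the PRT4165 cells after thinning, with overlap between the treatments but a higher share with PRT4165 within each replicate number (40.9% ± 7.57 against 49.5% ± 14.4, SD, n = 2 plates each, exact permutation p = 0.667). Among all kept cells with a Krt79 count before thinning, the median level was 6368 and 1030 CPM with vehicle and 1695 and 269 CPM with PRT4165. More cells with little Krt79 therefore stood beside a lower sum on PRT4165 replicate 2. The mean of log2(CPM + 1) over cells, which weights cells equally, differed by 0.77 ± 0.50 for Krt79 (SE, n = 2 plates per group), 0.12 ± 0.44 for Plet1 and 0.34 ± 0.51 for Defb6, all 3 higher with PRT4165. The other 5 genes were lower by this measure, from -0.12 for Slc5a9 to -0.54 for Teddm3. Of all genes, 40.1% were lower, so a higher value was the more common direction. None of the 8 passed the threshold in limma (adjusted p between 0.716 and 0.971). How far depth set this measure was not tested.

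For the other 6 genes the thinned shares overlapped or lay close together. Plet1 was detected in 45.8% and 31.5% of vehicle cells and in 45.9% and 41.7% of PRT4165 cells. Defb6 was detected in 59.3% and 48.1% against 49.2% and 58.3%, means that were equal within 0.0217 percentage points. Teddm3, whose sums differed most, was detected in 35.6% and 24.1% of vehicle cells and in 21.3% and 26.4% of PRT4165 cells, so the shares overlapped where the sums did not. Rarres1 ran from 9.72% to 15.3% over the 4 plates, Susd2 from 15.3% to 27.1% and Slc5a9 from 6.56% to 16.9%. The exact permutation p lay between 0.333 and 1 for all 8 genes, and an exact test of 2 plates against 2 cannot go below 0.333.

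**Figure D2:**
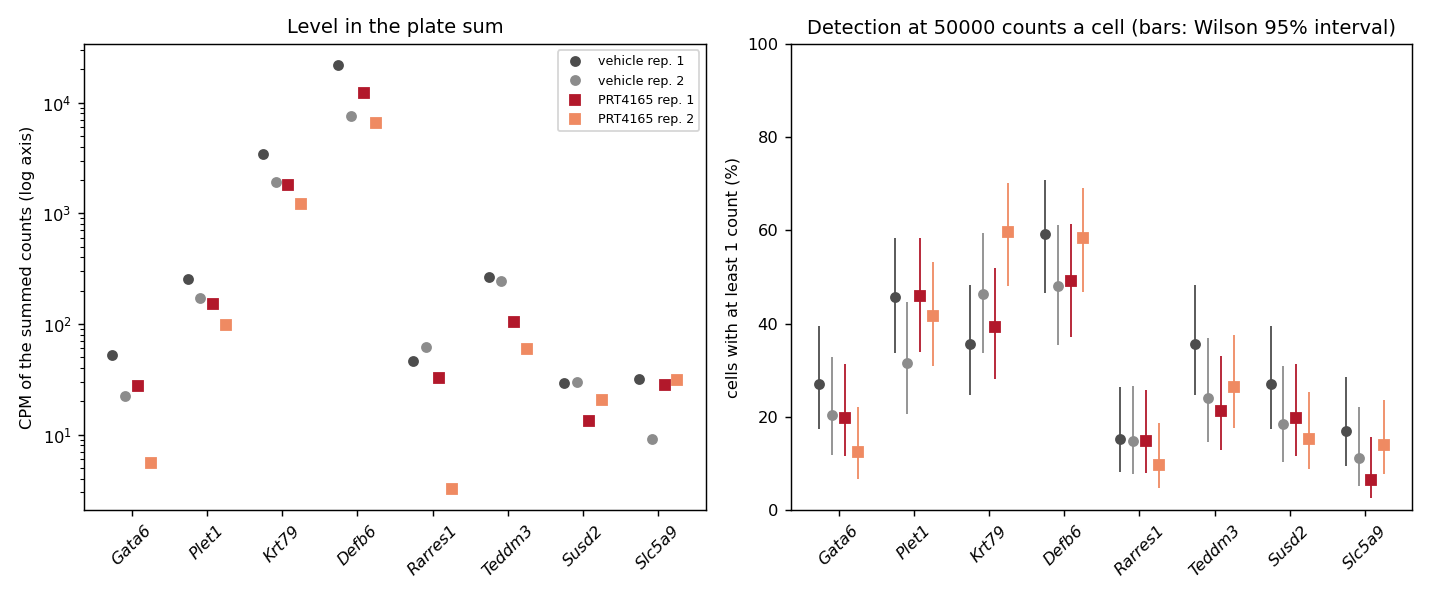
The left panel plots the CPM of each gene in the summed counts of each plate on a log axis, and the right panel the percent of thinned cells with at least 1 count, with vertical bars for the Wilson 95% interval; circles are vehicle plates and squares PRT4165 plates. Teddm3 has both squares below both circles on the left but not on the right, and Krt79 has its highest detection, 59.7%, on the plate with its lowest sum, 1207 CPM.

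The number of the 8 genes found in a single cell showed how far they go together. Of the 246 thinned cells, 52 had none, 61 had 1 and 44 had 2, while 46 cells (18.7%, Wilson 95% interval 14.3 to 24.0) had 5 or more and 3 cells had all 8. The mean number per cell was 2.63 and 2.15 with vehicle and 2.16 and 2.38 with PRT4165, or 2.39 ± 0.34 against 2.27 ± 0.15 (SD, n = 2 plates each; exact permutation p = 1). Cells with 5 or more made up 15 of 59 and 12 of 54 vehicle cells and 10 of 61 and 9 of 72 PRT4165 cells. The fewest cells with none were on PRT4165 replicate 2, with 6 of 72, against 13 of 59, 19 of 54 and 14 of 61 on the other plates. That plate thus had fewer cells at both ends, and its largest group, 20 cells, had 2 of the genes.

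**Figure D3:**
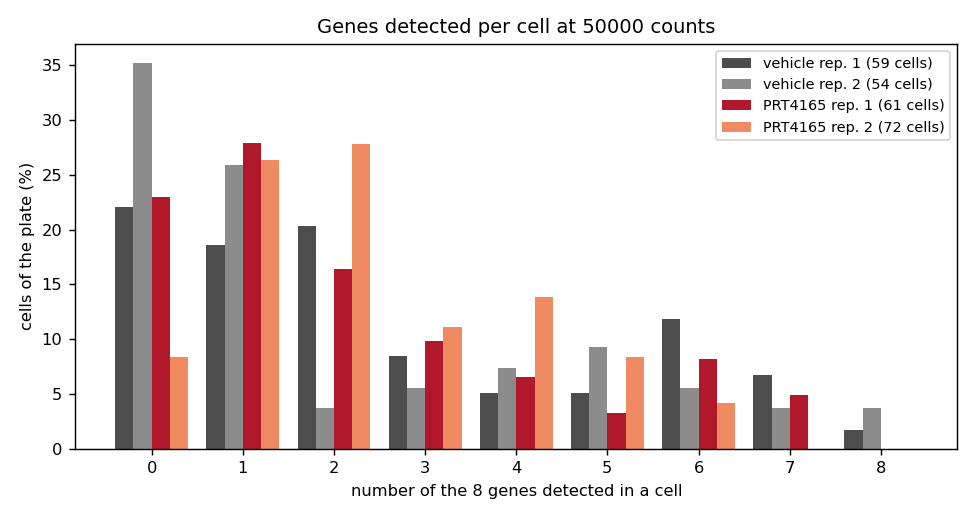
The horizontal axis is the number of the 8 genes detected in a cell after thinning to 50000 counts, and the height of a bar is the percent of that plate's cells (59, 54, 61 and 72). PRT4165 replicate 2 has the fewest cells with 0 genes, 8.33%, and none with 7 or 8.

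Gata6 was read against the rest cell by cell. Of the 48 thinned cells with Gata6, 38 also had Plet1 (79.2%), against 64 of 198 cells without it (32.3%). Krt79 was found in 37 of the 48 (77.1%) against 38.4% of the cells without Gata6, and Defb6 in 39 (81.3%) against 47.5%. For these 3 genes the order held on every plate. Krt79, for instance, was in 11 of 16, 11 of 11, 8 of 12 and 7 of 9 cells with Gata6, and in 23.3%, 32.6%, 32.7% and 57.1% of those without it. Teddm3 was in 25 of the 48 cells (52.1%) against 20.7%, Susd2 in 18 (37.5%) against 15.7%, Rarres1 in 11 (22.9%) against 11.1% and Slc5a9 in 11 (22.9%) against 9.60%. The order turned for Susd2 on PRT4165 replicate 1, with 2 of 12 cells (16.7%) against 20.4%, and for Slc5a9 on PRT4165 replicate 2, with 1 of 9 cells (11.1%) against 14.3%. In unthinned cells these 2 orders did not turn, at 56.3% against 16.1% and 13.3% against 12.9%. Before thinning, the cells with Gata6 among those thinned had a median of 563414 counts and those without 469563, and the part of depth that thinning leaves was not tested.

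The reverse shares were lower, since Gata6 was the rarer gene. It was detected in 37 of 113 cells with Krt79 (32.7%) and in 39 of 133 cells with Defb6 (29.3%). Teddm3 was the gene most nearly nested in another: 64 of 66 cells with Teddm3 (96.97%) had Defb6, and only 2 of the 113 cells without Defb6 (1.77%) had Teddm3. Susd2 was similar, with Defb6 in 46 of 49 cells.

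Across all 274 kept cells, with log2(CPM + 1) centred within each plate, Pearson's r between the genes was above 0 for all 28 pairs and ran from 0.18 to 0.67, with a mean of 0.42. These are correlations over cells that share libraries and depth, and are given as a description. The highest were Defb6 with Teddm3 (0.67), Krt79 with Defb6 (0.66) and Rarres1 with Teddm3 (0.65), and the lowest Plet1 with Slc5a9 (0.18). Gata6 averaged 0.33 with the other 7, the lowest mean of the set, and Teddm3 0.55, the highest. Thinned cells gave a mean of 0.37 over the pairs. Of the 28 pairs, 20 had their lowest r on PRT4165 replicate 2. Defb6 with Teddm3 and Susd2 with Slc5a9 were not among them, at 0.70 and 0.55 there. Krt79 with Slc5a9 was at 0.37, 0.57 and 0.33 on the first 3 plates and at -0.27 there, and Krt79 with Susd2 at 0.56, 0.57 and 0.53 against 0.0075.

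**Figure D4:**
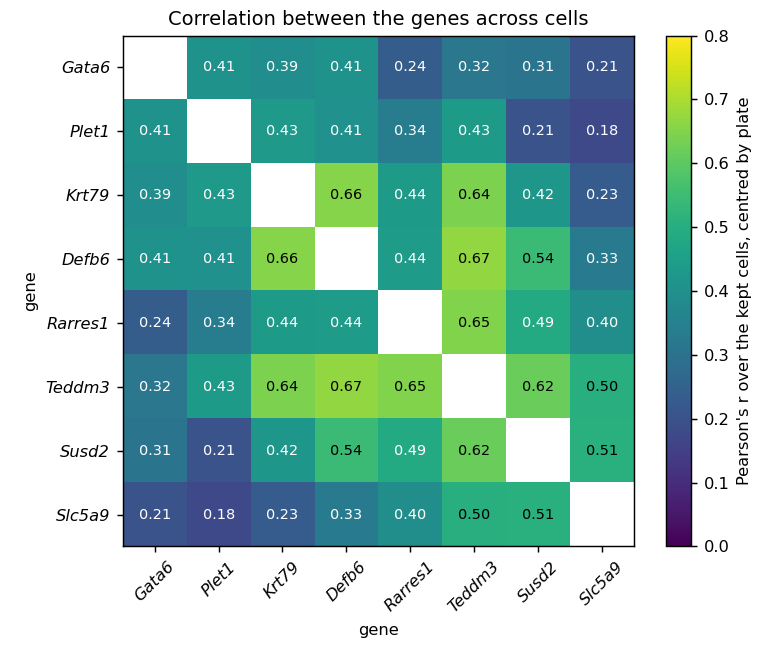
Rows and columns are the 8 genes, and colour and number give Pearson's r of log2(CPM + 1) over 274 cells, centred by plate; the diagonal is blank. The pairs among Teddm3, Defb6 and Krt79 lie between 0.64 and 0.67, with Rarres1 and Teddm3 at 0.65, and Gata6 and Plet1 stand lower with the genes of smallest detection.

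Among 6205 other genes detected in at least 20% of cells, those most like Gata6 over the 274 cells were Ptgr1 (r = 0.47), a prostaglandin reductase, Nebl (0.46), an actin-binding protein, Egr2 (0.44), an immediate early transcription factor, Car13 (0.44), a carbonic anhydrase, and Skint3 (0.43). Each was above every member of the set, of which Defb6 and Plet1 were highest with 0.41 each. Those most like the mean of the 8 genes were Ly6g6c (0.83), Cst6 (0.82), which encodes a cystatin that inhibits skin proteases, Sdr16c6 (0.77), Sprr1a (0.74), which encodes a cornified envelope precursor, and Klk7 (0.74), a protease of skin shedding. Against the same mean taken without the gene itself, Teddm3 had r = 0.79 and Gata6 0.47. The mean of the 8 genes also moved with depth, at r = 0.26 with the log2 of a cell's total counts.

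Marker lists were set against the mean of the 8 genes, to see with which compartments it went. Each list was scored by the summed CPM of its genes, so its most abundant gene weighed most. The mean of the 8 genes correlated at 0.74 with a list of 14 other upper follicle and duct markers. Cst6 alone gave 32268 of the 36058 CPM of that list on vehicle replicate 1 and 14080 of 17788 CPM on PRT4165 replicate 1. With 10 markers of differentiated interfollicular epidermis the mean stood at 0.47, and single genes of that list ran from 0.09 (Lor) to 0.68 (Dsc1). It stood at 0.05 with 9 measured sebaceous markers, -0.22 with 8 cycling markers, -0.39 with 8 bulge and lower follicle markers and -0.40 with 8 basal markers, among them Krt5 (-0.66), the basal keratin. The upper follicle list was not uniform. Cst6 (0.82), Atp6v1c2 (0.58) and Nebl (0.58) were among the higher values, and Sostdc1 (-0.29), Ly6a (-0.26), Cbr2 (-0.25) and Lgr6 (-0.20) lay below 0. Between treatments no gene of any list was called in edgeR. Of the 14 upper follicle markers 6 had a log2 fold change above 0 and 8 below, with a median of -0.04 against -0.02 over all genes tested.

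Cells were grouped by Leiden clustering on variable genes from which the 8 were left out, which gave 8 clusters lettered by size. Cluster F (25 cells) was led by Sprr1a, Cst6 and Klk7. It had 8 of the 14 upper follicle and duct markers raised, with Cst6 and Klk10 among its 10 leading genes, and it had 8 of the 10 differentiated interfollicular markers raised as well, among them Krt10 (25 of 25 cells) and Ivl (19 of 25). It is therefore called by its letter. Its cells had a mean of 6.6 of the 8 genes, and 23 of the 25 had 5 or more. Defb6 and Teddm3 were in 25 of 25 cells, Krt79 in 23, Plet1 in 22, Susd2 in 20, Rarres1 in 19, Gata6 in 16 and Slc5a9 in 15. These 25 cells, 9.12% of those kept, held 84.1% of all Rarres1 counts, 72.03% of Teddm3, 60.7% of Plet1, 55.4% of Slc5a9, 53.4% of Susd2, 47.7% of Defb6, 44.2% of Krt79 and 41.6% of Gata6. Shares of counts also follow depth, and cluster F had the deepest median cell of the 8 clusters, with 667689 counts. For Gata6 its sum gave 66.2 CPM but its median cell 2.74 CPM, so a few cells weighed much in the 41.6%.

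Cluster D (30 cells) stayed unnamed under the marker rule. Defb6, Cst6 and Krt79 led it. Defb6 was in 30 of its cells at a median of 26932 CPM, near the 31284 CPM of cluster F, and Krt79 in 26 at a median of 3806 CPM. Plet1 was in 24 cells and Gata6 in 14. Rarres1 was in 5 and Slc5a9 in 4, and Klk10 was in 3 of 30 cells where cluster F had it in 19 of 25. Clusters D and F together thus held most of the Gata6 counts, with 31.7% in D.

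The genes came apart in the other clusters. In cluster C (37 cells), differentiated interfollicular-like with Krt1 and Krt10 leading, Susd2 was in 25 cells and Slc5a9 in 13, and these cells held 32.5% and 40.7% of the counts of those genes. Gata6 was in 10 of the 37 and held 3.91% of its counts there. Cluster A (62 cells, unnamed, Krt5 and Krt14 raised) had Gata6 in 16 cells, a share of 25.8% near the 27.0% of cluster C, but held 17.3% of its counts. Plet1 was in 28 cells of cluster A, but Teddm3 in 3, Susd2 in 4, Slc5a9 in 2 and Rarres1 in 1.

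Cluster H (21 cells), sebaceous gland-like with Scd1 and Mgst1 in every cell, had Krt79 without most of the others. Krt79 was in 21 of 21 cells at a median of 415 CPM, below the 7115 CPM of cluster F. Defb6, the most abundant gene elsewhere, had a count in 9 of these cells but summed to 1.74 CPM, so detection by at least 1 count includes trace levels. Gata6, Teddm3, Susd2 and Slc5a9 were in 0 of 21 cells, which allows a share of up to 14.3%. Plet1 was in 10 and Rarres1 in 3 of these cells. In the cycling-like cluster G (24 cells, Mki67 in 19) Gata6, Rarres1, Teddm3, Susd2 and Slc5a9 were in 0 of 24 cells, which allows up to 12.5%, while Plet1 was in 8. Cluster B (50 cells, led by genes such as Krt15 and Postn) had a mean of 0.86 of the 8 genes per cell, and 27 of its cells had none. In cluster E (25 cells, led by Krt6a) Plet1 was in 17 cells and Krt79 in 5.

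**Figure D5:**
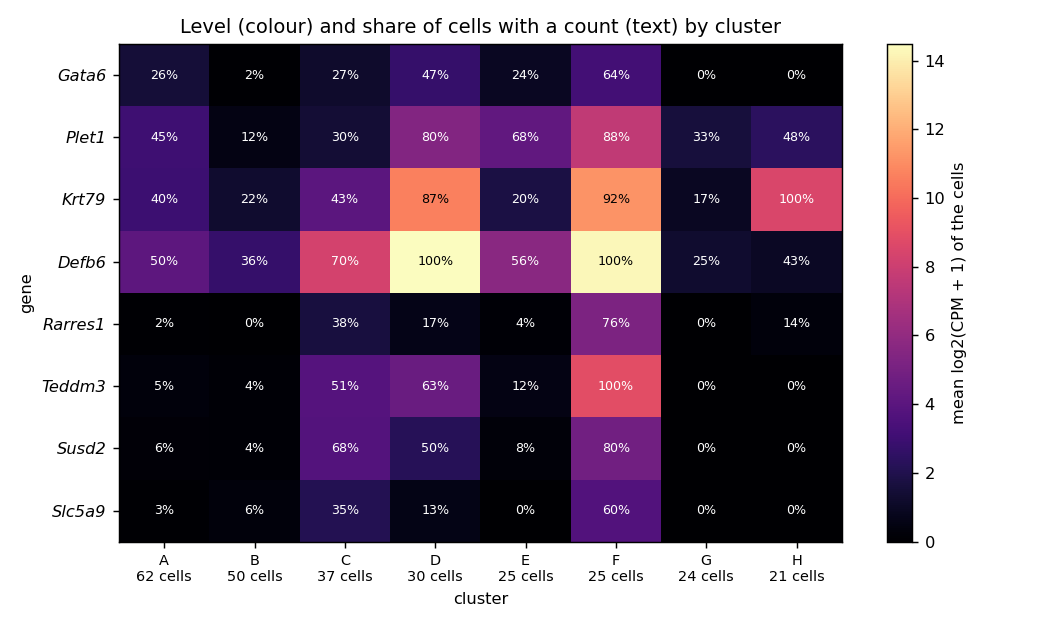
Columns are the 8 clusters with their cell numbers, rows the 8 genes; colour is the mean log2(CPM + 1) of the cells and the text the percent of cells with at least 1 count. Column F has the highest mean of every gene except Defb6, but Gata6 (3.22), Slc5a9 (3.69), Susd2 (4.82) and Rarres1 (5.23) stay low on the colour scale. Column D is bright in Krt79 and Defb6. Column H is bright in Krt79, which was in 100% of its cells, with 4 of the genes at 0%.

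Cluster makeup differed between the plates, and not always in the direction of the sums. Cluster F had 10 and 6 cells with vehicle and 5 and 4 with PRT4165. Cluster D held 35.5% of Krt79 and 33.8% of Defb6 counts, and had 5 and 6 cells with vehicle against 8 and 11 with PRT4165. Cluster H had 2 and 3 against 5 and 11. Without the cells of cluster F, Teddm3 stood at 67.8 and 29.5 CPM with vehicle and at 56.8 and 55.2 CPM with PRT4165, and its log2 fold change was 0.21 ± 0.68 (SE, n = 2 plates per group; adjusted p = 0.997 in edgeR) instead of -1.64. Plet1 and Defb6 also changed sign, to 0.42 and 0.12, Gata6 came to -0.33 and Krt79 to -0.21, while Rarres1 was at -2.80 and Slc5a9 at 2.76. In all, 4 of the 8 genes were then below 0, beside 50.9% of all genes. With all cells it was 7 of the 8, beside 50.6% of all genes. The 4 cells of cluster F on PRT4165 replicate 2 did not go one way. Teddm3 was at 115 CPM there against 582 to 1324 CPM on the other 3 plates, and Krt79 was in 2 of 4 cells against 21 of 21, while Susd2 was at 80.3 CPM against 41.8 to 140 CPM. Without the cells of cluster H, the difference in Krt79 detection was 4.96 percentage points instead of 8.59. These clusters were built on the same cells, and whether PRT4165 changed their number cannot be told apart from the plates.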

How the data were processed

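Full-length cDNA of sorted tomato-positive cells, 1 cell per well, was sequenced with a Smart-seq2 variant. Per the labels, the authors used Salmon 0.13.1 with the GRCm38 (mm10) build and deposited estimated counts per gene symbol and cell, unscaled, and 18.3% of the values above 0 were not whole. The 8 genes, the marker lists and the tests were chosen with earlier results of these data known. The labels give the treatment codes PR9_AC and PR12_PRT; the first was taken as vehicle because PRT4165 and vehicle are the only treatments named, and the numbers in the codes are not explained.

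Cells with at least 1000 genes and at most 50% mitochondrial counts were kept, which left out 15 of 289. No doublet caller was run, as each well received 1 cell. Counts were summed per plate, rounded, filtered with filterByExpr and tested with edgeR 4.0.16 (TMM, quasi-likelihood test, Benjamini-Hochberg adjustment, threshold 0.05) under R 4.3.3. The SE is the log2 fold change divided by the square root of F. DESeq2 1.42.0, limma 3.58.1 and the other settings were alternatives. The edgeR step was also run on simulated counts with known folds, at the fitted spread and at a smaller one. The share of those folds recovered is not given here, so an absence of calls does not show an absence of change. The biological coefficient of variation was 76.9%. Replicate numbers come from a batch tag in the labels and so pair the plates; the deviations of plates with the same number correlated at 0.02.

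For detection, counts of genes that are not mitochondrial were drawn once, without replacement, to 50000 per cell; 28 cells were too shallow (11, 1, 11 and 5 by plate). Shares have Wilson 95% intervals, which cover counting error only, as the reads carry no molecular identifiers. Clustering (leidenalg 0.10.2) used 2000 variable genes without the 8, 15 components, 15 neighbours and resolution 1.0. Beside the 8 genes, the 5 genes of highest correlation with Gata6 and the 5 with the mean of the 8 were named by rule, along with defining markers. Klk10, Mki67 and genes leading clusters were named after their values were seen. Lists for hair lineage, fibroblast, immune, melanocyte, endothelial and Merkel cells had 6, 3, 1, 3, 1 and 1 genes measured, no gene called, and correlations with the mean of the 8 genes of -0.18, -0.21, 0.09, -0.12, -0.23 and -0.06. Pecam1, the endothelial gene, had a count in 274 of 274 cells, so it marks no cell type here.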

Additional observations from a re-analysis of the deposited data

Results flagged for a closer look

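The 15 cells left out by the cell filter (5, 3, 4 and 3 by plate) enter no main comparison, and they held more than the 3 counts that a count of 0 allows for 7 of the 8 genes. In their summed counts Defb6 stood at 6059 CPM (9 cells), Krt79 at 296 CPM (4 cells), Rarres1 at 25.7 CPM (2 cells), Plet1 at 13.3 CPM (4 cells), Teddm3 at 12.1 CPM (3 cells), Gata6 at 11.96 CPM (2 cells) and Susd2 at 1.85 CPM (2 cells). Slc5a9 had no count. Vehicle replicate 1 gave 57123 of the 71954 Defb6 counts.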

How the results depend on the processing

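No gene of the 8 was called under any setting tried. Over all genes the share called was 0% under edgeR in every setting, 1.68% with DESeq2 and 0.149% with limma on the mean log2 CPM per cell. Of 120 alternative log2 fold changes of the 8 genes, 9 turned sign. They were Plet1 (0.12), Krt79 (0.77), Defb6 (0.34) and Slc5a9 (-0.12) with the mean per cell, and Plet1 (0.42), Defb6 (0.12) and Teddm3 (0.21) without cluster F, an alternative chosen after seeing the data. With 1 plate left out, Defb6 ran from -1.34 to 0.48 (0.48 without vehicle replicate 1) and Slc5a9 from -0.21 (without vehicle replicate 2) to 1.87. The other 6 genes kept their sign but not their size. Gata6 ran from -2.71 and Rarres1 from -3.96 (both without PRT4165 replicate 1) to -0.29 (without vehicle replicate 1) and -0.72 (without PRT4165 replicate 2). Krt79 was at -0.17 and Plet1 at -0.28 without vehicle replicate 1, and they were at -1.30 and -1.14 without vehicle replicate 2. Susd2 ran from -1.19 (without PRT4165 replicate 2) to -0.44 (without PRT4165 replicate 1) and Teddm3 from -2.03 to -1.33. With the deepest cell of each plate left out Gata6 was at -0.64. With the replicate block 0 genes were called and no sign changed, and Teddm3 was at -1.67 with an adjusted p of 0.999 in edgeR. The smallest adjusted p of Teddm3 under any setting was 0.243. The settings that left out a plate also left 1 plate in a group, which was assumed to vary like the others.

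The difference in genes detected per cell, -0.12, was 0.17 without thinning and ran from -0.36 to 0.12 with 1 plate left out (0.12 without vehicle replicate 1). Of 96 alternative differences in shares of cells, 85 kept their sign. The replicate block is counted among these for every gene, although it equals the main difference by arithmetic and so could not turn. In percentage points, Plet1 (5.16) was -0.28 at 20000 counts and -3.81 at 5 or more counts, Rarres1 was 0.884 under the stricter cell filter, Susd2 was 1.92 without thinning, Slc5a9 was 0.430 at 5 or more counts, and Teddm3 and Slc5a9 were 1.13 and 0.283 without cluster F. With 1 plate left out, Plet1 ran from -1.98 (without vehicle replicate 2) to 12.3, Krt79 from -1.60 (without PRT4165 replicate 2) to 18.8 and Defb6 from -5.57 to 5.61. Gata6 stayed below 0 throughout, from -11.2 to -2.97, and was -3.47 with another seed and -3.42 at 5 or more counts. With another seed Rarres1 was at -8.21 and Defb6 at 3.49. The share of cells with Gata6 that had Krt79 was 60.9% (14 of 23) at 5 or more counts. The cause of these changes was not tested. The 28 cells under 50000 counts could not enter the thinned shares.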
